A study of Mus musculus with 20 samples.

Results

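Genes typical of fat cells were followed in mouse articular chondrocytes treated with 25-hydroxycholesterol, the sulfate of that sterol or the compound GW3965, together with Car3. The set was 8 genes of the 54532 in the expression table: Adipoq, Cfd, Lpl, Cd36, Fabp4, Pparg and Cebpa, chosen by name as adipocyte-type genes, and Car3. Car3 was chosen because it falls with 25HC3S and with GW3965, a choice that used the Vehicle libraries too, so its values are given as a description with no test, and it is left out of every count of members called. All 8 passed the filter on low values (at least 1 FPKM, fragments per kilobase of gene corrected for depth, in at least 5 libraries) and had at least 1 FPKM in each of the 20 libraries. The chondrocytes came from mice 6 weeks old, of a strain not given in the sources used here, and each treatment lasted 48 hours. The 4 groups held 5 libraries each. Vehicle cells received DMSO, the 25HC group 20 µM 25-hydroxycholesterol, the 25HC3S group 20 µM 25-hydroxycholesterol-3-sulfate and the GW3965 group 2 µM GW3965. 25HC is an oxidised form of cholesterol, 25HC3S carries in addition a sulfate group at the 3 position, and GW3965 is a man-made compound that activates liver X receptors (LXR). The 2 sterols were given at the same dose and time, whereas the dose of GW3965 differed. The labels do not tell if replicates were separate animals or cultures. Each p-value therefore reflects only how far these libraries scattered, which may be technical.

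White adipocytes store triglyceride and release hormones. Their differentiation is driven by the nuclear receptor PPARγ (Pparg) and the transcription factor C/EBPα (Cebpa), which switch on one another and the genes of the mature fat cell. Lipoprotein lipase (Lpl) frees fatty acids from circulating triglyceride, Cd36 takes them into the cell and Fabp4 carries them in the cytosol, while adiponectin (Adipoq) and adipsin (Cfd) are secreted. Several of these genes are not limited to fat: macrophages express Lpl, Cd36, Pparg and Fabp4, and Lpl is a known LXR target gene in macrophages and liver. Car3 encodes carbonic anhydrase III, a cytosolic enzyme that is abundant in adipocytes, liver and slow skeletal muscle.

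The libraries held 14653777 to 19365220 fragments in genes. In 4 libraries (Vehicle replicates 2, 3 and 4 and 25HC3S replicate 1) only 237 to 1171 genes were seen at exactly 1 fragment, against 1808 to 2057 genes in the other 16, and the mitochondrial share of fragments ran from 0.369% to 4.07% against 0.889% to 1.41%. Results are therefore given with and without these 4 libraries, which leaves 2 Vehicle and 4 25HC3S libraries. Chondrocyte markers were present: all 12 passed the filter, led by Col2a1, Comp and Col11a1, and their summed level ran from 1799 to 5187 FPKM. White adipocyte markers were partly present. Of 13, Adipoq, Cfd, Fabp4 and the lipid droplet coat genes Plin1 (1.25 to 4.05 FPKM) and Plin4 (5.10 to 7.76 FPKM) had at least 1 FPKM in every library, while 6 reached 1 FPKM in none. Of these 6, Lep (leptin) and Pck1 were at 0 in every library. The name adipocyte-type describes the genes, and which cells of the cultures expressed them was not tested. Macrophage markers were abundant. Their 12 genes, led by Lyz2, C1qb and Cd68, summed to 412 to 999 FPKM in Vehicle, 692 to 979 in 25HC, 352 to 686 in 25HC3S and 885 to 1025 in GW3965. Endothelial markers, led by Cdh5, Pecam1 and Egfl7, summed to 4.28 to 11.4 FPKM over the 20 libraries. Skeletal muscle markers, led by Acta1, Tnnt3 and Des, summed to 4.59 to 10.9 FPKM. In such bulk libraries fewer cells of a type and less RNA per cell cannot be told apart.

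Per length of gene, Lpl was the highest member, with a mean of 52.6 FPKM over the 20 libraries, followed by Cebpa with 20.5 and Cfd with 18.9. Adipoq (10.4), Cd36 (8.80), Pparg (7.50), Fabp4 (7.00) and Car3 (6.14) lay close together, with ranges that overlapped. The depth behind the values was 61 to 1190 fragments per library for every member except Lpl, which had 4599 to 16114. The deposited gene length counts all annotated exons together, and this lowers 2 members in particular. Fabp4 was scaled by 4489 bases where its principal transcript has 896, so its mean would be 35.1 FPKM on the latter, and Lpl by 10478 bases where the principal transcript has 4115, which gives 134 FPKM. A longer length lowers all libraries alike but shrinks a difference on the log2(FPKM + 1) scale used for the tests.

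The upstream sequences of Adipoq and Cd36 are shown because these were the adipocyte-type members whose differences passed the test over all 20 libraries. The Cd36 window precedes an annotated start inside the span of the gene, not its outermost start. Windows of 250 bases before the annotated start were taken from RefSeq (GRCm38.p6) and matched by symbol for 5 of the 8 members (7 windows): Adipoq, Cfd, Pparg, Cd36 and Cebpa. Each is written 5′ to 3′ on the strand of the gene, with motif letters in capitals.
Adipoq, chr16:23146286-23146535, plus strand: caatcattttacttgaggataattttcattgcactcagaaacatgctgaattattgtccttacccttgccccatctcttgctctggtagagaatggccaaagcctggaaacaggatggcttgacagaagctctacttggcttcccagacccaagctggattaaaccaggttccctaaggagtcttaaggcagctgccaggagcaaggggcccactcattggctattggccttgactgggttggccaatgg
Cd36, chr5:17835897-17836146, minus strand: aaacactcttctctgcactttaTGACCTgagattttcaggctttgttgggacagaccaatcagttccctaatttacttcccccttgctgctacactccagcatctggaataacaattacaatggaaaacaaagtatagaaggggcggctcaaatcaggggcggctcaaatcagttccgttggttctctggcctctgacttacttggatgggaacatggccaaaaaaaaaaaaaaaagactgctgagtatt
The letters searched on both strands were AGGTCA, the core bound by many nuclear receptors, its direct repeats AGGTCANAGGTCA (DR1, the spacing of PPARγ with RXR) and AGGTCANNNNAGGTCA (DR4, the spacing of LXR with RXR), which both contain the core, and TTGCNNAA, a C/EBP core. TATAAA was searched on the gene's strand. None of these was in the Adipoq window. In the Cd36 window the core occurred once, on the opposite strand, and its capitals begin 228 bases before the start. The core was also found in 2 of the Pparg windows, and TTGCNNAA in the third. The Cebpa window held TATAAA 30 bases before the start. Neither repeat was found in the 7 windows. Over all 32851 RefSeq windows of this length, 14.0% held the core, 9.56% TTGCNNAA, 7.59% TATAAA, 0.0335% the DR1 repeat and 0.0152% the DR4 repeat.

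Of the 7 adipocyte-type members, Adipoq and Cd36 passed the test over all 20 libraries. Adipoq fell with 25HC3S relative to 25HC, and both Adipoq and Cd36 rose with GW3965 relative to 25HC3S. With limma on log2(FPKM + 1), 1 of the 7 adipocyte-type members was called (adjusted p under 0.05) for 25HC3S with 25HC, where 0.816% of the 12752 genes tested were called. For GW3965 with 25HC3S 2 of 7 were called, against 4.63% of all genes. None of the 7 was called for 25HC with Vehicle (0.0392% of all genes called), 25HC3S with Vehicle (1.61%), GW3965 with Vehicle (6.46%) or GW3965 with 25HC (1.74%). At an unadjusted p under 0.05 these 4 comparisons held 0, 2, 1 and 2 of the 7, where 30.3%, 17.1%, 31.9% and 7.50% of all genes tested had such a p. Without the 4 libraries the counts were 0 of 7 for 25HC with Vehicle (0.0235% of all genes called), 2 for 25HC3S with Vehicle (3.95%), 1 for GW3965 with Vehicle (7.77%), 2 for 25HC3S with 25HC (7.18%), 2 for GW3965 with 25HC (13.1%) and 4 for GW3965 with 25HC3S (17.9%). For 25HC with Vehicle none of the 7 had an unadjusted p under 0.05 in that fit either. The comparisons share groups and are not independent of each other.

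**Figure D1:**
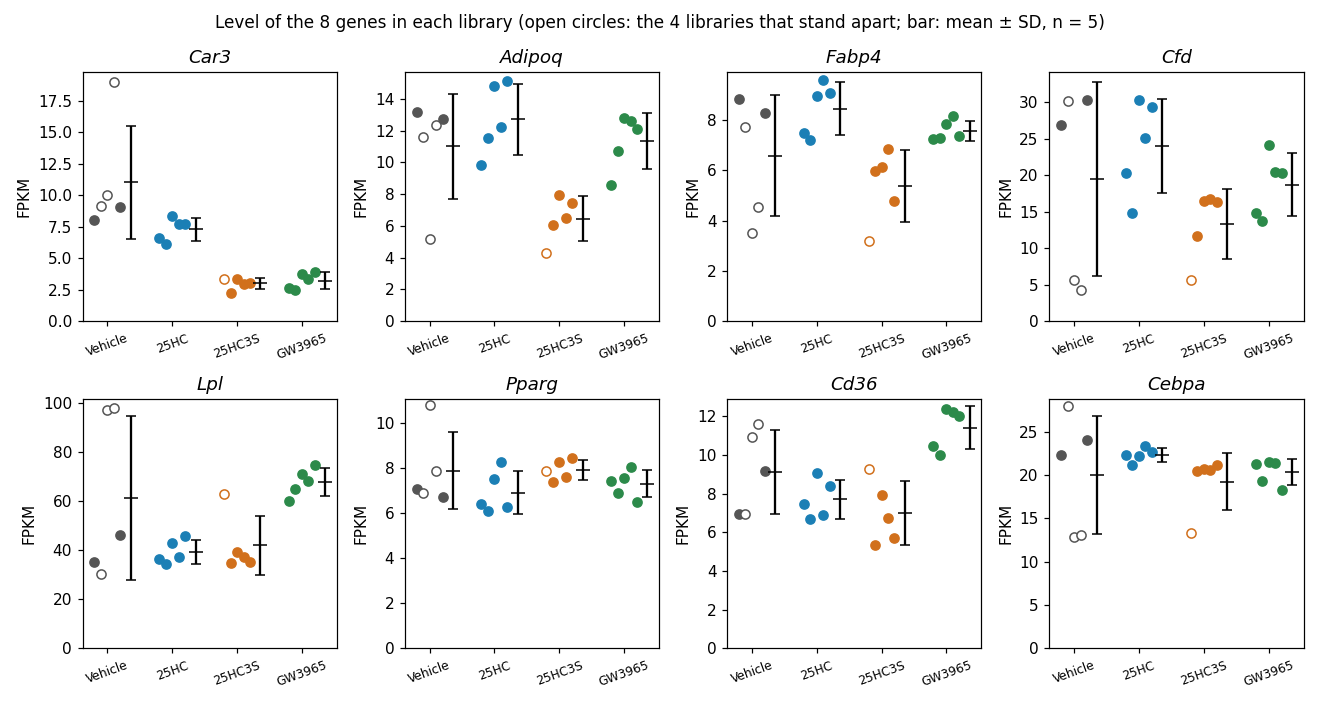
FPKM of each of the 8 genes (one panel per gene, linear axis from 0) in the 5 libraries of Vehicle, 25HC, 25HC3S and GW3965; points are libraries, open points the 4 libraries with few genes at 1 fragment, and bars the group mean with its SD. Car3 is low in all 25HC3S and GW3965 libraries (2.26 to 3.93 FPKM), Adipoq in 25HC3S (4.28 to 7.92 FPKM), and Lpl is even in GW3965 (60.0 to 74.9 FPKM) but spread in Vehicle (30.4 to 98.2 FPKM).

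Car3 (chr3:14863512-14872523, plus strand, 7 exons in its principal transcript) was chosen on its low level with 25HC3S and GW3965. In Vehicle replicates 1 to 5 it had 8.01, 9.18, 10.0, 19.0 and 9.04 FPKM, and in 25HC 6.64, 6.09, 8.33, 7.72 and 7.70 FPKM. With 25HC3S the values were 3.38, 2.26, 3.35, 2.95 and 3.00 FPKM, and with GW3965 2.60, 2.48, 3.73, 3.32 and 3.93 FPKM. Every library of the last 2 groups lay below every library of the first 2, whereas Vehicle and 25HC overlapped at 8.01 to 8.33 FPKM. The means were 11.0 ± 4.49 FPKM in Vehicle, 7.30 ± 0.908 in 25HC, 2.99 ± 0.451 in 25HC3S and 3.21 ± 0.653 in GW3965 (SD, n = 5). The 25HC3S mean was 27.1% and the GW3965 mean 29.1% of the Vehicle mean, and without the 4 libraries these shares were 33.9% and 37.7%. Relative to 25HC they were 41.0% and 44.0%. The difference of GW3965 from 25HC3S was 0.07 on the log2(FPKM + 1) scale, with overlapping ranges.

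Between 25HC and Vehicle the log2(FPKM + 1) difference of Car3 was -0.48, also a description, since the choice of Car3 used the Vehicle values. Vehicle replicate 4, the highest of the 20 libraries at 19.0 FPKM, carried much of it: without that library the difference was -0.28, and without the 4 libraries -0.20. Without Vehicle replicate 1 it was -0.57.

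Of 16 carbonic anhydrase genes, Car3 and 6 others passed the filter: Car6, Car13, Car5b, Car9, Car12 and Car11. Apart from Car11, these enzymes convert carbon dioxide and water to bicarbonate and differ in where they act. Car6 is secreted, Car9 and Car12 act at the cell surface, Car5b in mitochondria and Car13 in the cytosol. Car6 (13.2 FPKM over all libraries) and Car13 (7.76 FPKM) had a higher mean than Car3. None of the 6 was called by limma in any comparison over 20 libraries, and at an unadjusted p under 0.05 up to 4 of them were (GW3965 with Vehicle, where 31.9% of all genes were). Only Car6 was called without the 4 libraries, higher by 0.26 ± 0.08 with GW3965 than with 25HC3S (limma, adjusted p = 0.0245). In that comparison 17.9% of all genes were called. Car6 had group means of 13.7 FPKM in Vehicle, 13.2 in 25HC, 11.6 in 25HC3S and 14.4 in GW3965. Car4 was at 0 in every library, and Car2 did not exceed 0.372 FPKM. Muscle markers, which share a tissue with Car3, summed to 5.22 to 8.98 FPKM in Vehicle, 4.59 to 9.54 in 25HC, 4.65 to 6.37 in 25HC3S and 7.35 to 10.9 in GW3965. Of these 14 markers, 11 reached 1 FPKM in no library, and the part of muscle cells in the Car3 values was not tested.

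**Figure D2:**
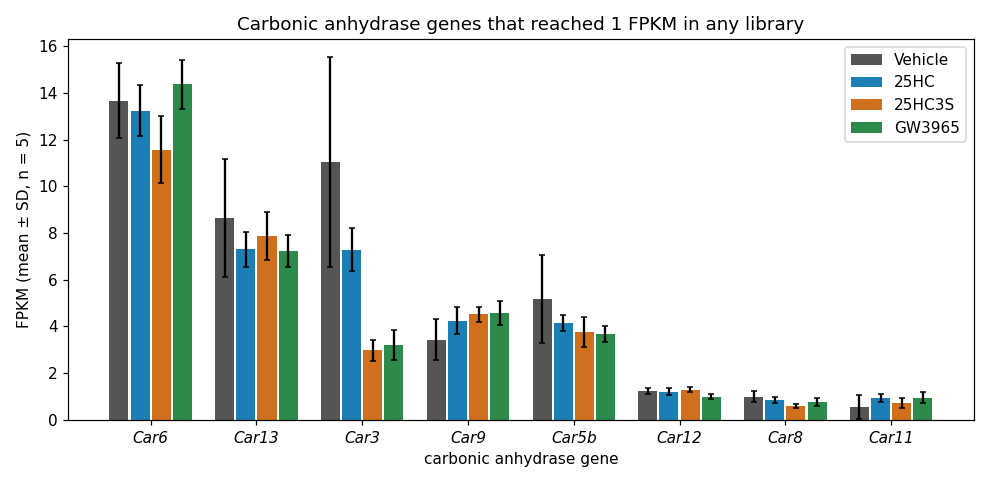
Group means of FPKM with SD (n = 5 libraries) for the 8 carbonic anhydrase genes that reached 1 FPKM in any library, on a linear axis from 0, with bars for Vehicle, 25HC, 25HC3S and GW3965. The Car3 bars are at 11.0 and 7.30 FPKM in Vehicle and 25HC and at 2.99 and 3.21 FPKM in 25HC3S and GW3965.

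Of the secreted members, Adipoq (chr16:23146536-23158028, plus strand), the hormone adiponectin, was lowest with 25HC3S. Its values were 13.2, 11.6, 5.19, 12.4 and 12.7 FPKM in Vehicle and 9.83, 11.5, 14.8, 12.2 and 15.2 FPKM in 25HC. They were 4.28, 6.07, 7.92, 6.53 and 7.47 FPKM in 25HC3S and 8.58, 10.7, 12.8, 12.6 and 12.1 FPKM in GW3965. All 25HC3S libraries lay below all 25HC and all GW3965 libraries, and Vehicle overlapped 25HC3S only through replicate 3. The 25HC3S mean (6.45 ± 1.42 FPKM, SD, n = 5) was 50.8% of the 25HC mean (12.7 ± 2.26). The 2 sterols, which differ by the sulfate at the 3 position, thus differed by -0.89 ± 0.20 on the log2(FPKM + 1) scale (SE, adjusted p = 0.0420, limma).

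This Adipoq call was close to the threshold. It was lost (adjusted p up to 0.135) without any 1 of 25HC replicates 2, 3, 4 and 5 or of 25HC3S replicates 1, 2, 4 and 5, and without the filter on low values (adjusted p = 0.101). The difference was -0.77 ± 0.12 with the 4 libraries left out together (adjusted p = 0.00113), and 25HC3S was then also below Vehicle, by -0.81 ± 0.16 (adjusted p = 0.00846), where all 20 libraries gave -0.65 ± 0.20 (adjusted p = 0.123). GW3965 exceeded 25HC3S by 0.74 ± 0.20 (adjusted p = 0.0368), and by 0.62 ± 0.12 without the 4 libraries (adjusted p = 0.00186). That call too was lost without any 1 of 25HC3S replicates 1, 2 and 4 or of GW3965 replicates 2, 3, 4 and 5 (adjusted p up to 0.111), and without the filter (adjusted p = 0.0860). GW3965 with 25HC gave -0.15 (95% interval -0.56 to 0.27) and 25HC with Vehicle 0.23 (-0.18 to 0.65).

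Some markers of other cells, chondrocytes included, also fell with 25HC3S. Without the 4 libraries the chondrocyte markers Acan, Col9a2, Comp, Matn1 and Snorc fell with 25HC3S relative to 25HC. These falls ran from 0.27 ± 0.04 (Comp) to 0.59 ± 0.11 (Col9a2), where 7.18% of all genes were called. The other listed chondrocyte markers were not called in that fit, and none of the list was called there over all 20 libraries. Of the 12 macrophage markers, 3 fell with 25HC3S relative to 25HC (Adgre1, Fcgr1 and Mrc1, the last by 1.52 ± 0.13), where 0.816% of all genes were called, and 8 fell without the 4 libraries (7.18% of all genes called). Relative to Vehicle 3 fell with 25HC3S (1.61% of all genes called). With GW3965 relative to 25HC3S 5 rose (4.63%), or 10 without the 4 libraries (17.9%). Mrc1 and Adgre1 fell with GW3965 relative to Vehicle (6.46% of all genes called), by 0.89 ± 0.13 and 0.32 ± 0.09. The Adgre1 fall was not called without the 4 libraries (adjusted p = 0.0767, limma). Mrc1 also fell with GW3965 relative to 25HC (1.74% of all genes called), by 0.61 ± 0.13 (adjusted p = 0.0132). In the fit without the 4 libraries (13.1% of all genes called) Mrc1 again fell in that comparison, but 2 other macrophage markers rose. These were Lyz2, by 0.30 ± 0.08 (adjusted p = 0.0236, limma), and Mertk, by 0.26 ± 0.06 (adjusted p = 0.00654). Of the 8 markers of adipocyte progenitors and stroma, Ly6a (Sca-1) fell with 25HC3S relative to 25HC by 0.65 ± 0.14 (adjusted p = 0.0274, 0.816% of all genes called). It rose with GW3965 relative to 25HC3S by 0.87 ± 0.14 (adjusted p = 0.000421, 4.63% of all genes called). Pdgfrb (-0.10 ± 0.05) and Pdgfra (-0.05 ± 0.09) were not called for 25HC3S with 25HC over all 20 libraries. Without the 4 libraries Pdgfrb fell there by 0.12 ± 0.03 (adjusted p = 0.0117, limma). The list of 8, led by Pdgfrb, Ly6a and Pdgfra, summed to 161 to 199 FPKM in Vehicle, 192 to 206 in 25HC, 156 to 165 in 25HC3S and 199 to 218 in GW3965. The 13 white adipocyte markers, which include Adipoq, Cfd and Fabp4, summed to 24.3 to 66.3 FPKM in Vehicle, 45.2 to 69.7 in 25HC, 22.4 to 41.5 in 25HC3S and 41.4 to 58.2 in GW3965. The part of cell composition in the members' differences was not tested.

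Cfd (chr10:79890853-79892655, plus strand), the complement protease adipsin, varied most within Vehicle. It had 26.8, 30.2, 5.66, 4.22 and 30.3 FPKM in Vehicle and 20.3, 14.8, 30.4, 25.1 and 29.4 FPKM in 25HC. In 25HC3S the values were 5.64, 11.7, 16.4, 16.7 and 16.3 FPKM, and in GW3965 14.8, 13.7, 24.1, 20.5 and 20.3 FPKM. Every pair of groups overlapped, and the 3 lowest values of all came from Vehicle replicates 3 and 4 and 25HC3S replicate 1. No comparison passed the test (25HC3S with 25HC: -0.84 ± 0.45, adjusted p = 0.788). Once the 4 libraries were left out, 2 Vehicle libraries remained (26.8 and 30.3 FPKM). The remaining 25HC3S libraries (11.7 to 16.7 FPKM) and all GW3965 libraries (13.7 to 24.1 FPKM) lay below both. The 25HC3S difference from Vehicle of -0.87 ± 0.25 again did not pass (adjusted p = 0.0655, limma), and neither did that of GW3965.

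Of the fatty acid handling members, Lpl (chr8:68880491-68907448, plus strand) had its highest mean with GW3965 (67.8 ± 5.73 FPKM, SD, n = 5). Its values were 60.0, 65.0, 71.2, 68.1 and 74.9 FPKM with GW3965 and 36.5, 34.3, 42.9, 37.1 and 45.7 FPKM with 25HC. With 25HC3S they were 62.9, 34.8, 39.4, 37.4 and 35.4 FPKM, and in Vehicle 35.2, 30.4, 97.0, 98.2 and 46.1 FPKM. All GW3965 libraries lay above all 25HC libraries, and above all 25HC3S libraries but replicate 1, whereas Vehicle split into 3 libraries at 30.4 to 46.1 FPKM and replicates 3 and 4 at 97.0 and 98.2 FPKM. Over all 20 libraries no Lpl difference passed the test: GW3965 with 25HC gave 0.78 ± 0.26 (adjusted p = 0.223) and GW3965 with Vehicle 0.31 ± 0.26 (adjusted p = 0.393). When only the 25HC and GW3965 libraries entered the fit, none of which is among the 4, the difference of 0.78 passed (adjusted p = 9.35e-05). In the fit without the 4 libraries Lpl rose with GW3965 by 0.78 ± 0.08 relative to 25HC (adjusted p = 1.34e-05), 0.86 ± 0.09 relative to 25HC3S (adjusted p = 4.35e-06) and 0.73 ± 0.11 relative to Vehicle (adjusted p = 0.000562). In that fit 25HC3S with 25HC differed by -0.09 (95% interval -0.28 to 0.10).

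Cd36 (chr5:17781690-17888801, minus strand), the fatty acid translocase, also had its highest mean with GW3965 (11.4 ± 1.11 FPKM, SD, n = 5). It had 10.4, 9.99, 12.4, 12.2 and 12.0 FPKM with GW3965 and 9.28, 5.34, 7.94, 6.72 and 5.68 FPKM with 25HC3S. In 25HC the values were 7.44, 6.66, 9.06, 6.90 and 8.41 FPKM, and in Vehicle 6.94, 6.96, 10.9, 11.6 and 9.15 FPKM. Every GW3965 library lay above every library of both sterols, and Vehicle replicates 3 and 4 reached the GW3965 range. Cd36 rose with GW3965 relative to 25HC3S by 0.65 ± 0.14 (SE, adjusted p = 0.00901, limma), and this held in every alternative fit, with adjusted p of at most 0.0338. GW3965 with 25HC gave 0.52 ± 0.14 (adjusted p = 0.0885), which passed when only these 2 groups were fitted (adjusted p = 0.00205) and without the 4 libraries (adjusted p = 0.00315). GW3965 with Vehicle gave 0.32 ± 0.14 (adjusted p = 0.144), and 0.46 ± 0.14 without the 4 libraries (adjusted p = 0.0519).

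Fabp4 (chr3:10204088-10208576, minus strand), the cytosolic fatty acid carrier of fat cells and macrophages, was lowest with 25HC3S, as Adipoq was. The 25HC3S libraries had 3.20, 5.96, 6.14, 6.85 and 4.79 FPKM and the 25HC libraries 7.47, 7.19, 8.97, 9.60 and 9.08 FPKM. GW3965 libraries had 7.23, 7.31, 7.86, 8.16 and 7.36 FPKM and Vehicle libraries 8.85, 7.73, 3.49, 4.54 and 8.29 FPKM. All 25HC3S values lay below all 25HC and GW3965 values, while Vehicle spanned both because of replicates 3 and 4. No difference passed over 20 libraries (25HC3S with 25HC: -0.59 ± 0.19, adjusted p = 0.274). With the 4 libraries left out Fabp4 fell with 25HC3S by 0.45 ± 0.09 relative to 25HC (adjusted p = 0.00412) and by 0.47 ± 0.11 relative to Vehicle (adjusted p = 0.0248), and GW3965 exceeded 25HC3S by 0.31 ± 0.09 (adjusted p = 0.0172).

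The master regulators of fat cell differentiation did not pass the test in any comparison, with or without the 4 libraries. Pparg (chr6:115360951-115490399, plus strand) had 7.07, 6.91, 10.8, 7.89 and 6.70 FPKM in Vehicle and 6.39, 6.08, 7.53, 8.28 and 6.26 FPKM in 25HC. It had 7.85, 7.39, 8.25, 7.60 and 8.43 FPKM in 25HC3S and 7.43, 6.91, 7.58, 8.05 and 6.51 FPKM in GW3965. All groups overlapped, and Vehicle replicate 3 was the highest library. Its difference without the 4 libraries was 0.18 for 25HC3S with Vehicle (95% interval -0.03 to 0.39) and 0.07 for GW3965 with Vehicle (-0.13 to 0.27). Pparg overlaps the antisense gene Gm44079, which reached 1.01 FPKM, and Cebpa the antisense gene Gm45091, which reached 1.27 FPKM. The strand setting of the counting is not given in the sources used here, so fragments of these pairs may not be separable.

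Cebpa (chr7:35119293-35121928, plus strand, 1 exon) had 22.4, 28.0, 12.8, 13.1 and 24.1 FPKM in Vehicle and 22.3, 21.1, 22.3, 23.4 and 22.7 FPKM in 25HC. In 25HC3S it had 13.3, 20.5, 20.7, 20.6 and 21.1 FPKM, and in GW3965 21.3, 19.4, 21.5, 21.4 and 18.3 FPKM. Only Vehicle replicates 3 and 4 and 25HC3S replicate 1 fell outside 18.3 to 28.0 FPKM. Without the 4 libraries GW3965 with Vehicle gave -0.18 (95% interval -0.30 to -0.06, adjusted p = 0.0649) and 25HC3S with Vehicle -0.16 (-0.28 to -0.03, adjusted p = 0.168).

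**Figure D3:**
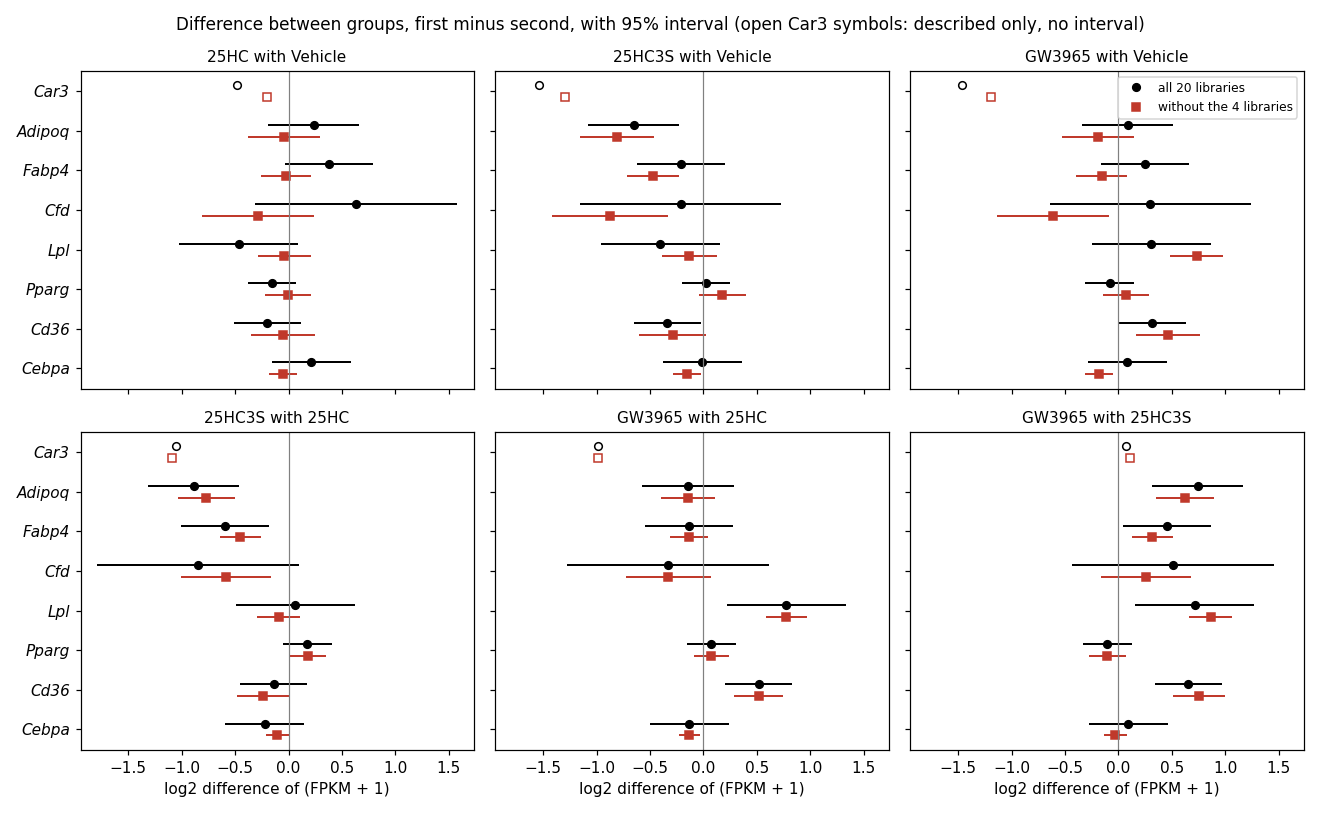
Differences of group means on the log2(FPKM + 1) scale with 95% intervals from limma for each member in the 6 comparisons (one panel each), over all 20 libraries and without the 4 libraries; Car3 is shown without intervals. The Cd36 interval for GW3965 with 25HC3S lies above 0 in both fits, and the Lpl intervals for GW3965 are narrower without the 4 libraries (0.59 to 0.96 with 25HC, against 0.23 to 1.32).

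Vehicle replicates 3 and 4 and 25HC3S replicate 1 shared a pattern across the members. Fabp4 (3.20 to 4.54 FPKM), Cfd (4.22 to 5.66 FPKM) and Cebpa (12.8 to 13.3 FPKM) were lower in these 3 than in any of the other 17 libraries, where they ran from 4.79 to 9.60, from 11.7 to 30.4 and from 18.3 to 28.0 FPKM. Lpl (62.9 to 98.2 FPKM) and Cd36 (9.28 to 11.6 FPKM) were in the upper part of their ranges there. Lpl and Cd36 thus differed in direction from Fabp4, Cfd and Cebpa within those libraries, and Vehicle replicate 2, which also had few genes at 1 fragment, did not share this. The part of library quality in these values was not tested.

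**Figure D4:**
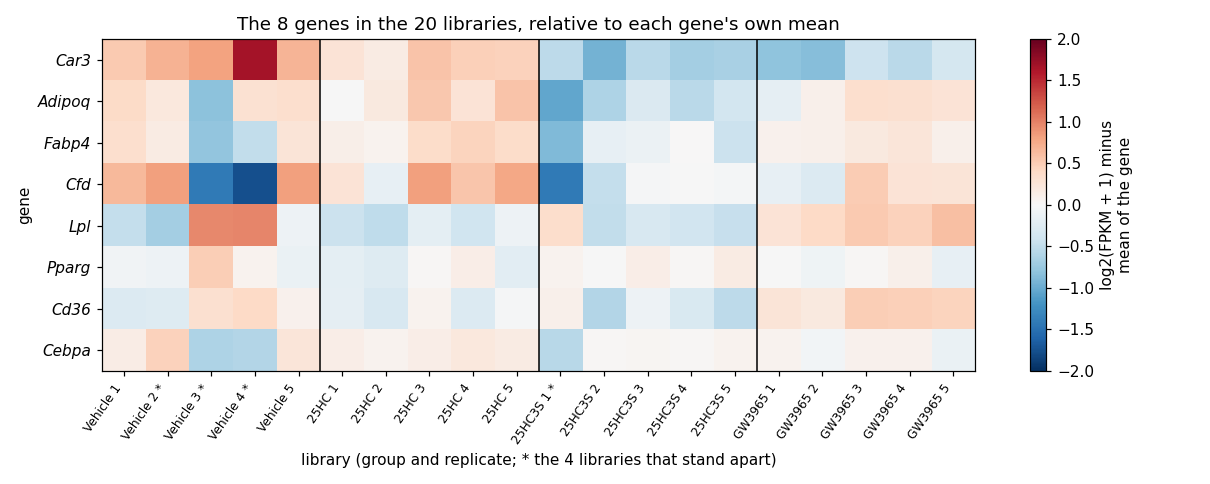
Level of each member (rows) in each of the 20 libraries (columns, by group and replicate), as the difference of log2(FPKM + 1) from the member's mean over all libraries; the colour scale gives the difference. Car3 is low across the 25HC3S and GW3965 columns, and Vehicle replicates 3 and 4 and 25HC3S replicate 1 show low Fabp4, Cfd and Cebpa beside high Lpl.

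Of 11 genes of fatty acid uptake and transport, all tested, 3 rose with GW3965 relative to 25HC3S (4.63% of all genes called): Cd36, Fabp5 and Fabp3. The median of the list was 0.38 in that comparison, against 0.00 for all genes tested. For GW3965 with Vehicle and with 25HC only Fabp5 of the 11 was called, where 6.46% and 1.74% of all genes were. Fabp5, the epidermal fatty acid carrier also made by macrophages, rose with GW3965 by 1.33 ± 0.16 relative to 25HC3S, by 0.99 ± 0.16 relative to 25HC (adjusted p = 0.00122) and by 1.28 ± 0.16 relative to Vehicle (adjusted p = 4.43e-05). Its mean was 23.1 ± 1.07 FPKM with GW3965 and 9.23 ± 2.84 FPKM in Vehicle (SD, n = 5), so the related Fabp5 was called where Fabp4 was not. Fabp5 has near-identical copies in the genome, so its level is uncertain to the extent that the counting split its fragments. Without the 4 libraries 6 of the 11 rose with GW3965 relative to 25HC3S, where 17.9% of all genes were called, and 4 of the 11 fell with 25HC3S relative to 25HC, where 7.18% were called: Fabp4, Fabp3, Fabp5 and Slc27a1, a fatty acid transporter.

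Among the regulators of lipoprotein lipase, 3 of 7 listed genes were tested. Where 6.46% of all genes were called, Angptl4, a secreted inhibitor of the enzyme, rose with GW3965 relative to Vehicle by 1.39 ± 0.28 (adjusted p = 0.00438, limma). The rise was 0.70 ± 0.07 without the 4 libraries (adjusted p = 8.43e-06). Apoc2, the cofactor of the enzyme, was at 0 in every library. Of 7 triglyceride synthesis genes tested, Lpin1, a phosphatidate phosphatase, rose with GW3965 relative to Vehicle (0.32 ± 0.06), 25HC (0.34 ± 0.06) and 25HC3S (0.53 ± 0.06). Gpam, the acyltransferase of the first step, rose with GW3965 relative to 25HC (0.39 ± 0.10, adjusted p = 0.0418, limma). Of all genes tested, 6.46%, 1.74% and 4.63% were called for GW3965 with Vehicle, 25HC and 25HC3S. None of the 8 lipid droplet and lipolysis genes tested was called over 20 libraries in any comparison (limma), and at most 3 had an unadjusted p under 0.05 (25HC3S with 25HC, where 7.12% of all genes did). Of the highest of these, G0s2, an inhibitor of the lipase Pnpla2, ran from 4.27 to 37.0 FPKM. It fell with 25HC3S relative to 25HC by 0.53 ± 0.11 without the 4 libraries (adjusted p = 0.00808).

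None of the 10 adipogenic transcription factors tested, Pparg and Cebpa included, was called over 20 libraries in any comparison (limma), and at most 2 had an unadjusted p under 0.05, where 7.12% to 31.9% of all genes did. Without the 4 libraries Cebpd rose with 25HC3S relative to 25HC by 0.21 ± 0.06 (7.18% of all genes called). It also rose relative to Vehicle, by 0.29 ± 0.07 with 25HC3S (3.95%) and by 0.24 ± 0.07 with GW3965 (7.77%). In that fit GW3965 relative to 25HC, where 13.1% of all genes were called, had Klf15 higher by 0.28 ± 0.06. Cebpb and Rxra were lower there (-0.16 ± 0.05 and -0.15 ± 0.04). Relative to 25HC3S, where 17.9% were called, GW3965 had Klf15 higher by 0.32 ± 0.06. Cebpb and Stat5a were lower there (-0.24 ± 0.05 and -0.18 ± 0.05). Of 5 adipokines tested, Adipoq rose and Apln (apelin) fell with GW3965 relative to 25HC3S, where 4.63% of all genes were called. The Apln fall was 0.48 ± 0.13 (adjusted p = 0.0429, limma). Among 9 genes of adipocyte receptors and insulin response tested, Adra2a, an adrenergic receptor, rose with GW3965 relative to Vehicle (0.31 ± 0.07) and 25HC3S (0.30 ± 0.07). In these comparisons 6.46% and 4.63% of all genes were called. For 25HC with Vehicle none of the 69 genes other than Car3 tested from the 10 lists was called (limma), and 17 had an unadjusted p under 0.05, where 30.3% of all genes did.

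The genes whose levels were most like those of each member were ranked by Pearson r of log2(FPKM + 1) over the 16 libraries, as a description with no test. The libraries share their treatments and their depth, and r over all 20 libraries is given after it. For Car3 the closest were Aqp1 (0.92, then 0.61), Plpp3 (0.91, then 0.29), Mmp11 (0.90, then -0.23), Oas2 (0.90, then 0.50) and Tnfaip8 (0.89, then 0.85). For Adipoq they were Anxa6 (0.91, then 0.49), Anpep (0.91, then 0.68), Cadm1 (0.91, then 0.30), Cdo1 (0.91, then 0.67) and Cilp (0.90, then 0.87). Lpl was closest to Rasgef1b (0.96, then 0.68), Tmem135 (0.96, then 0.94), Acss2 (0.96, then 0.55), Fads2 (0.96, then 0.58) and AB124611 (0.95, then 0.052). Cd36 was closest to Wdr1 (0.94, then 0.34), Plin2 (0.94, then 0.67), Lpl (0.94, then 0.89), Ucp2 (0.94, then 0.077) and Tkt (0.93, then 0.68). The only member among the 5 closest of another member was Lpl for Cd36. For Fabp4 the closest included Igfbp6 (0.91, then 0.87), Ptgis (0.91, then -0.20), Ralb (0.90, then 0.92) and Gsn (0.90, then 0.92). For Cfd they were Thy1 (0.90, then 0.85), Tpm3 (0.88, then -0.26), Cilp (0.87, then 0.61), Plin4 (0.87, then 0.73) and Psmb8 (0.86, then 0.93). Pparg (Cct3, 0.83, then 0.34) and Cebpa (Ppp1r9b, 0.84, then 0.81) had lower values of r.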

How the data were processed

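RNA from 20 libraries of mouse articular chondrocytes was sequenced, 5 in each of 4 groups taken from the treatment labels. The authors deposited FPKM for 54532 genes, and CASAVA 1.8 and HISAT2 2.0.5 were used, per the submitters' processing notes. The counting program, its strand setting and the build were not given in the sources used here. GENCODE M21 (GRCm38) held 99.8% of the gene IDs, and 98.3% of those had the same position. Each FPKM times gene length was a whole number of fragments within 0.02 for 100% of values, which gave depths of 14653777 to 19365220. PCR fragments without molecular identifiers are not independent molecules, so depth covers counting error only.

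As FPKM are not counts, limma 3.58.1 in R 4.3.3 was used on log2(FPKM + 1), with genes of at least 1 FPKM in at least 5 libraries (12752), 1 mean per group over all 20 libraries and a trended moderated variance. This scale understates the change of low genes. Each of 6 comparisons was tested two-sided with Benjamini-Hochberg adjustment over all genes tested, and calls were made at an adjusted p under 0.05. Intervals are 95% intervals. The steps were tested on simulated data in which no library stood apart. That test does not show how the fit behaves with the 4 libraries.

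The members, the 10 pathway lists, the 6 marker lists and the set of 4 libraries were chosen with earlier results of these data known. Named beside the members were the called genes of a pathway list (at most 4 per comparison), the 2 highest of a list, the 3 highest of a marker list and markers at 0, and the 5 genes most like each member. Genes named with calls from the fit without the 4 libraries, and the levels of single carbonic anhydrases, were picked after their values were seen. Alternatives were a pseudocount of 0.1, no filter, upper-quartile scaling, library weights, a fit of the 2 groups only, the replicate number as a block, and libraries left out. The test planned for Car3 in 25HC with Vehicle is not used, as the choice of Car3 used Vehicle values. No member fell under the filter, so the exact test planned for such members had no case. Promoter windows came from RefSeq (GRCm38.p6). No protein sequences were used here. Some genes that met these rules are not reported here.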

Additional observations from a re-analysis of the deposited data

Results flagged for a closer look

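In 5 of the 32 sets of 5 libraries (8 genes in 4 groups), 1 library lay far from the others of its group by Dixon's criterion, where chance alone gives about 1 in 20. In Vehicle replicate 4 Car3 was 18.98 FPKM, with the nearest library at 10.02 FPKM. Vehicle replicate 3 had Adipoq at 5.186 FPKM, with the nearest at 11.6 FPKM, and Pparg at 10.81 FPKM, with the nearest at 7.889 FPKM. In 25HC3S replicate 1 Lpl was 62.9 FPKM, against 39.35 FPKM in the nearest library, and Cebpa was 13.34 FPKM, against 20.47 FPKM. These 3 libraries are among the 4 with few genes at exactly 1 fragment. Their part in the members' differences is given by the values with and without them, and its cause was not tested.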

How the results depend on the processing

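Over 42 results and 714 alternative values, 633 kept their direction and side of the threshold, and 39 changed sign, none of them a called difference. Another 23 gained a call and 19 lost one. The losses were all of Adipoq, 10 of 17 alternatives for 25HC3S with 25HC and 9 of 17 for GW3965 with 25HC3S. The Cd36 call for GW3965 with 25HC3S held throughout. The number of the 7 adipocyte-type members called moved with library weights to 3 for 25HC3S with Vehicle, 2 for GW3965 with Vehicle, 3 for 25HC3S with 25HC, 2 for GW3965 with 25HC and 4 for GW3965 with 25HC3S. Without the 4 libraries it was 2, 1, 2, 2 and 4 in that order. Without the filter it was 0 for 25HC3S with 25HC and 1 for GW3965 with 25HC3S, and with only the 2 groups 2 for GW3965 with 25HC. With each library left out in turn it ran from 0 to 1 for 25HC3S with Vehicle (1 without Vehicle replicate 3) and for 25HC3S with 25HC, and from 1 to 2 for GW3965 with 25HC3S. Over the same fits the Car3 difference for 25HC with Vehicle, a description, ran from -0.569 to -0.282.

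With the replicate number as a replicate block the counts were 0 for 25HC3S with 25HC (Adipoq, adjusted p = 0.0672) and 1 for GW3965 with 25HC3S (Adipoq, adjusted p = 0.0543), and 0 as before elsewhere. Same-numbered libraries were not seen to go together. Deviations from the group means correlated over 0.1 in 4 of 30 same-numbered pairs and in 20 of 120 differently numbered pairs. Of 20 libraries, 4 correlated best with their own number. The 4 libraries that stand apart entered these deviations, so the values cannot show if the numbers pair the libraries, and pairing without them was not tested.

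Signs changed in these uncalled differences (log2). With library weights and without the 4 libraries, in that order, 25HC with Vehicle gave Adipoq -0.00242 and -0.0421, Cfd -0.215 and -0.282, and Cebpa -0.0544 and -0.0516, and without the 4 libraries Fabp4 -0.0232. GW3965 with Vehicle gave Adipoq -0.174 and -0.188, Fabp4 -0.123 and -0.158, Cfd -0.603 and -0.613, Pparg 0.0781 and 0.0700, and Cebpa -0.178 and -0.182. For 25HC3S with 25HC Lpl gave -0.0939 and -0.0896, and for GW3965 with 25HC3S Cebpa gave -0.0102 and -0.0271. With 1 library left out, 25HC3S with Vehicle ran from -0.610 to 0.0428 for Cfd, from -0.0249 to 0.129 for Pparg and from -0.145 to 0.123 for Cebpa. GW3965 with Vehicle ran from -0.136 to 0.177 for Adipoq, from -0.0958 to 0.550 for Cfd, from -0.128 to 0.0259 for Pparg and from -0.0519 to 0.216 for Cebpa. Lpl for 25HC3S with 25HC ran from -0.0896 to 0.119, and Cebpa for GW3965 with 25HC3S from -0.0271 to 0.129. The cause was not tested. The lowest depth behind a member's value was 61 fragments, and depth was not tested as a limit.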

Other observations

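Of the genes listed as restrainers of fat cell differentiation none of the 8 tested was called over all 20 libraries (limma) in any comparison. At most 2 had an unadjusted p under 0.05, where 7.12% to 31.9% of all genes did. Whether each of them, Sfrp2 included, restrains that process in these cells was not tested. Without the 4 libraries 1 rose and 1 fell with GW3965 relative to Vehicle (7.77% of all genes called) and relative to 25HC (13.1%), 2 rose and 1 fell relative to 25HC3S (17.9%), and 1 fell with 25HC3S relative to 25HC (7.18%) and to Vehicle (3.95%). Sfrp2, a secreted Wnt modulator, fell in that fit with GW3965 relative to Vehicle by 0.59 ± 0.10 (SE, limma, adjusted p = 0.00194), a difference not called over all 20 libraries. In the other comparison, with 25HC, its mean over 5 libraries was 60.2 FPKM with GW3965 against 95.1 FPKM with 25HC. That difference was -0.64 ± 0.19 over all 20 libraries (adjusted p = 0.103) and -0.64 ± 0.08 without the 4 libraries (adjusted p = 4.00e-05). Wnt10b, a Wnt ligand that blocks adipogenesis, rose in the fit without the 4 libraries with GW3965 relative to 25HC by 0.30 ± 0.05 (adjusted p = 0.000480). Klf2, a transcription factor that represses Pparg, fell there with 25HC3S relative to 25HC by 0.48 ± 0.06 (adjusted p = 0.000210). Dlk1, a preadipocyte marker, ran from 0.237 to 3.32 FPKM and was called in neither fit.

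Of the thermogenic adipocyte genes, Ucp1 was at 0 in every library. Dio2, which activates thyroid hormone, fell with GW3965 relative to Vehicle by 0.74 ± 0.20 over all 20 libraries (adjusted p = 0.0321) and was not called without the 4 libraries.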
